A study of Mus musculus with 24 samples.

Results

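The genes described here were 10 components and targets of the YAP, TAZ and TEAD transcription pathway: *Yap1*, *Wwtr1*, *Tead1*, *Vgll3*, *Ctgf*, *Cyr61*, *Ankrd1*, *Amotl2*, *Axl* and *Lats2*. They were selected by name, with earlier results of these data known. Each symbol matched 1 row of the deposited expression table, so that 10 of its 49452 genes are reported. *Ctgf* and *Cyr61* are listed under these older symbols and are also known as *Ccn2* and *Ccn1*.

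The samples were 24 libraries from primary (1°) cells of the stromal-vascular fraction, which is what remains of fat tissue once the adipocytes have been removed. Cells were taken from interscapular brown adipose tissue (BAT) or perigonadal visceral white adipose tissue (vWAT) of male C57BL/6 mice aged 6 to 8 weeks and received either a non-targeting siRNA (siCtrl) or 1 siRNA against the lincRNA *H19* (siH19) by nucleofection. They were harvested before induction of differentiation (d0) or at day 3 of differentiation (d3). This gave 8 groups of 3 libraries: BAT siCtrl d0, BAT siH19 d0, BAT siCtrl d3, BAT siH19 d3 and the same 4 for vWAT. All groups were cultured and nucleofected, so none is an untreated control. The fraction is a mixture of cell types, and BAT of several animals could be pooled. Neither the labels nor the methods tie a replicate number to an animal or to a separate culture. The p-values thus measure the spread between the libraries of a group, and what separates these libraries is not given. The differentiation media differed, with triiodothyronine and indomethacin used for BAT and rosiglitazone named for vWAT, so depot and medium cannot be told apart at d3.

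The values are FPKM (fragments per kilobase of transcript, relative to the mapped fragments of the library), which are comparable between genes because they are divided by gene length. Summed FPKM ranged from 710794 to 841456 per library, and between 12311 and 13125 genes were at 1 FPKM or more. The table holds no counts, and the number of fragments behind a value is therefore unknown. Relative depth, read from the steps between low values, was 0.83 to 0.98 in BAT libraries and 1.02 to 1.18 in vWAT libraries, and it cannot be told apart from depot. The labels also give the BAT and the vWAT libraries different series names, so library series cannot be told apart from depot on either day. Across genes, Pearson r between libraries of a group was 0.988 to 0.991 on the log2(FPKM + 1) scale. *H19*, the target of the siRNA, was at 108 to 160.4 FPKM in BAT siCtrl d0 and 2.82 to 5.20 in BAT siH19 d0, and at 83.2 to 99.7 in BAT siCtrl d3 and 12.04 to 16.9 in BAT siH19 d3. In vWAT it was at 8.19 to 12.3 FPKM in the siCtrl libraries and 0.291 to 1.76 in the siH19 libraries of both days. No siH19 library reached the level of a siCtrl library of its depot and day.

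YAP (gene *Yap1*) and TAZ (gene *Wwtr1*) are transcriptional coactivators without a DNA-binding domain of their own. In the nucleus they bind TEAD transcription factors such as TEAD1, which recognise a short DNA motif in promoters and enhancers, and the Hippo kinase cascade, which ends in LATS1 and LATS2, phosphorylates both coactivators and keeps them in the cytoplasm. Spread cells on a stiff substrate hold active YAP and TAZ, and in mesenchymal precursors TAZ is known to bind PPARγ and to restrain its activity, the master regulator of adipocyte formation. Much of this control acts on the proteins, so RNA levels of *Yap1* and *Wwtr1* do not report the activity of their products.

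The coactivator genes lie on chromosome 9 from 7931999 to 8004596 (*Yap1*, minus strand, build GRCm38) and on chromosome 3 from 57455649 to 57575910 (*Wwtr1*, minus strand). *Tead1* lies on chromosome 7 from 112679318 to 112906807 (plus strand), and *Vgll3*, which encodes a vestigial-like cofactor that binds TEAD proteins, on chromosome 16 from 65815633 to 65863057 (plus strand). Of the target genes, *Ctgf* lies on chromosome 10 from 24595442 to 24598683 (plus strand), *Cyr61* on chromosome 3 from 145646976 to 145649981 (minus strand), *Ankrd1* on chromosome 19 from 36111965 to 36119844 (minus strand), *Amotl2* on chromosome 9 from 102716672 to 102733418 (plus strand) and *Axl* on chromosome 7 from 25757273 to 25788705 (minus strand). *Lats2* is listed on chromosome 14 from 57642077 to 57758388 (minus strand), an interval that also holds *Xpo4* on the same strand, so its values are uncertain where reads could be split between both genes. The gene *Ctgf* is overlapped on the opposite strand by *Gm15270*, *Yap1* by *Gm20416*, *Wwtr1* by *Gm16016* and *Tead1* by *2310014F06Rik*, and whether the counting used strand is not given in the sources used here.

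The DNA motif of TEAD factors was looked up in the 250 bases before the RefSeq transcription starts (build GRCm38.p6), for which 8 of the 10 genes had 10 windows. *Ctgf* and *Tead1* had no window, so their promoters were not examined. *Cyr61*, *Vgll3* and *Axl* are printed because they were among the genes that were higher in siH19 than in siCtrl in BAT cells at d3. The windows lie at chr3:145649986-145650235 on the minus strand (*Cyr61*), chr16:65814939-65815188 on the plus strand (*Vgll3*) and chr7:25788734-25788983 on the minus strand (*Axl*). Each is written 5′ to 3′ in the direction of the gene and ends at the base before the start, and capitals mark the TEAD motif GGAATG or its reverse complement CATTCC.
Cyr61: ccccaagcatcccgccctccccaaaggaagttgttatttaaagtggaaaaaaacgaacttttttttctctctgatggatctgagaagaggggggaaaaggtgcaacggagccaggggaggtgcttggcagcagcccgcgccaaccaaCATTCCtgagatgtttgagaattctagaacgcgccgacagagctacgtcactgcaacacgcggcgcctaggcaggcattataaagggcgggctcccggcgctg
Vgll3: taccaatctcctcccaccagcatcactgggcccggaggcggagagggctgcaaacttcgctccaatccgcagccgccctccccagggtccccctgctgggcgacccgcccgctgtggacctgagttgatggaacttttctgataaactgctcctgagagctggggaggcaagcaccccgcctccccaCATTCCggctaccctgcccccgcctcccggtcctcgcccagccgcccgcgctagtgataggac
Axl: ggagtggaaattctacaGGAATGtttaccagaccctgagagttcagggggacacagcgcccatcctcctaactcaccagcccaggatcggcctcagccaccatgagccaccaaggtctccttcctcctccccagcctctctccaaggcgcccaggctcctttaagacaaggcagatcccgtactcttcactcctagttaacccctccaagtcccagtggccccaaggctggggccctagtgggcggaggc

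Counted from the start, with -1 the last base of the window, the motif stood at -103 to -98 in *Cyr61*, at -63 to -58 in *Vgll3* and at -233 to -228 in *Axl*. *Ankrd1* held 2 copies, at -210 to -205 and at -123 to -118, and *Amotl2* held 1 at -65 to -60. *Yap1* held 1 at -141 to -136, and the 2 windows of *Wwtr1*, which overlap, held the same copy. Thus 7 of the 8 genes held the motif on either strand, and *Lats2* held it in neither of its 2 windows. Both *Lats2* windows and that of *Amotl2* lie inside the intervals listed for these genes, so the bases before the outermost listed start were not examined. Among all 32851 promoter windows of this length, 12.6% held it at least once and 1.02% held 2 or more copies. The motif of the AP-1 factors, TGANTCA, which often stands beside TEAD motifs in enhancers, was in none of the 10 windows and in 6.75% of all windows. A match of 6 letters describes the sequence and is no evidence of binding.

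The levels of the 10 genes differed in how widely they ranged over the 8 groups. The ratio of the highest to the lowest group mean was 55.0 for *Ctgf*, 17.9 for *Ankrd1*, 11.1 for *Cyr61*, 8.49 for *Axl*, 7.23 for *Vgll3*, 3.76 for *Lats2*, 2.06 for *Amotl2*, 2.02 for *Tead1*, 1.58 for *Wwtr1* and 1.42 for *Yap1*. The target genes and *Vgll3* thus spanned more than the coactivators. The plot of the 10 genes over all libraries shows *Ctgf* and *Cyr61* dropping from d0 to d3 in both depots, whereas *Vgll3* dropped in BAT.

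**Figure D1:**
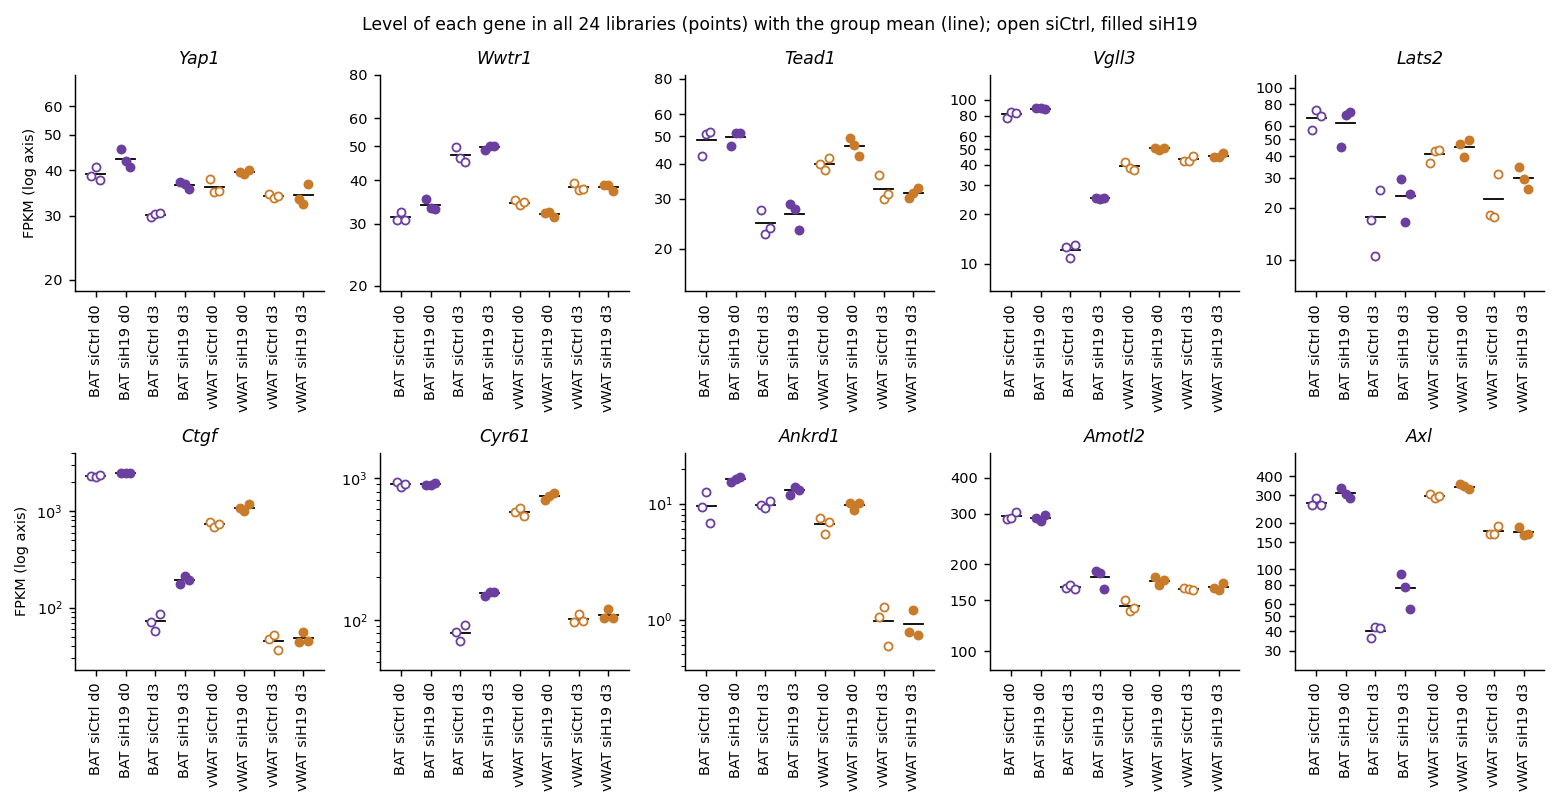
Level of each of the 10 genes in FPKM (log axis) in all 24 libraries, with 1 point per library, the mean of each group of 3 as a line, BAT in purple, vWAT in orange, siCtrl open and siH19 filled. Ctgf lies at 2253 to 2513 FPKM in the BAT d0 libraries and at 57.4 to 213 FPKM in the BAT d3 libraries, while Yap1 stays between 29.8 and 45.8 FPKM in all libraries.

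*Yap1* was at 38.7, 40.7 and 37.6 FPKM in BAT siCtrl d0, at 45.8, 42.5 and 40.8 in BAT siH19 d0, at 29.8, 30.3 and 30.5 in BAT siCtrl d3 and at 37.1, 36.7 and 35.6 in BAT siH19 d3. In vWAT all 12 libraries lay between 32.3 and 40.1 FPKM. BAT siCtrl d3 was the lowest of the 8 groups and its libraries lay below those of every other group. In the order of group means, BAT siH19 d0 came first, followed by vWAT siH19 d0 and BAT siCtrl d0, whose ranges overlapped.

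In BAT, *Wwtr1* was higher at d3 than at d0. It was at 30.8, 32.5 and 30.8 FPKM in BAT siCtrl d0 and at 49.9, 46.2 and 45.1 in BAT siCtrl d3, with 33.0 to 35.4 in BAT siH19 d0 and 48.9 to 50.02 in BAT siH19 d3. The vWAT libraries lay between 31.5 and 39.2 FPKM. Both d3 BAT groups thus lay above all others, and their ranges overlapped each other.

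*Tead1*, the TEAD factor of the set, had its 3 highest group means at d0, with 49.8 ± 2.98 FPKM (SD, n = 3) in BAT siH19, 48.4 ± 5.03 in BAT siCtrl and 46.2 ± 3.36 in vWAT siH19, and these neighbours overlapped. Its lowest means were 24.6 ± 2.60 in BAT siCtrl d3 and 26.6 ± 2.83 in BAT siH19 d3, which also overlapped. Among its relatives, *Tead2* was at 36.8 ± 2.38 FPKM and *Tead3* at 30.2 ± 1.90 FPKM in BAT siCtrl d0, so 3 TEAD genes were at levels of the same order there, whereas *Tead4* was at 1.5 ± 0.39 FPKM.

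*Ctgf* and *Cyr61* were the highest of the set at d0. In the order of its group means *Ctgf* ran from BAT siH19 d0 (2505 ± 7.89 FPKM, SD, n = 3) over BAT siCtrl d0, vWAT siH19 d0, vWAT siCtrl d0, BAT siH19 d3 and BAT siCtrl d3 to vWAT siH19 d3 (48.2 ± 6.42) and vWAT siCtrl d3 (45.5 ± 8.31), and of these neighbours the last pair overlapped. *Cyr61* followed a like order at d0, from 901.1 ± 36.7 FPKM in BAT siCtrl d0 to 572.6 ± 34.4 in vWAT siCtrl d0, but its lowest group was BAT siCtrl d3 with 81.3 ± 10.02. *Vgll3* and *Axl* were also lowest in BAT siCtrl d3, at 12.2 ± 1.18 and 40.3 ± 3.62 FPKM, and BAT siH19 d3 was next with 25.1 ± 0.338 and 75.7 ± 18.8, clear of BAT siCtrl d3 in both genes. *Ankrd1* was lowest in both vWAT d3 groups, which overlapped, and highest in BAT siH19 d0 with 16.3 ± 0.846 FPKM. *Amotl2* and *Lats2* were highest in the 2 BAT d0 groups, which overlapped.

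Silencing of *H19* in differentiating brown precursors (BAT d3) is the comparison in which the most members of the set changed with the siRNA. There, 4 of the 10 genes were higher in siH19, 0 were lower and 6 did not pass. The 4 were the secreted matrix proteins *Ctgf* and *Cyr61*, the TEAD cofactor *Vgll3* and the receptor tyrosine kinase *Axl*, which binds the ligand GAS6. A call required an adjusted p (Benjamini-Hochberg, over all genes tested) under 0.05 together with a 1.3-fold or larger difference on the log2(FPKM + 1) scale, a scale that understates changes of low genes. Of all 12500 genes tested, 6.39% were higher and 2.18% were lower. The set was chosen with earlier results of these data known, so its count beside these shares is not an unbiased comparison. The median log2 fold change was 0.40 over the 10 genes and 0.05 over all genes. Non-overlapping groups were seen for 6 of the 10, but the share of all genes with such groups was not computed. An unadjusted p under 0.05 was reached by 3913 of the 12500 genes (limma).

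*Ctgf* was at 71.6, 57.4 and 86.5 FPKM in the 3 BAT siCtrl d3 libraries and at 175, 213 and 194 FPKM in the 3 BAT siH19 d3 libraries. The groups were far apart, with a log2 fold change of 1.44 (SE 0.15, adjusted p = 0.0031, limma). The difference was 2.70-fold between the group means.

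*Cyr61* was at 81.5, 71.1 and 91.2 FPKM in BAT siCtrl d3 and at 147.7, 155.6 and 156.8 FPKM in BAT siH19 d3. The groups did not overlap, and the log2 fold change was 0.92 (SE 0.09, adjusted p = 0.0029, limma). *Cyr61* and *Ctgf* belong to the same family of cysteine-rich matricellular proteins.

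*Vgll3* was at 12.6, 10.9 and 13.1 FPKM in BAT siCtrl d3 and at 25.3, 24.7 and 25.2 FPKM in BAT siH19 d3. Its siH19 libraries were close to each other and clear of the siCtrl libraries, with a ratio of means of 2.06 and a log2 fold change of 0.99 (SE 0.08, adjusted p = 0.002, limma).

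*Axl* was at 36.2, 42.7 and 42.1 FPKM in BAT siCtrl d3 and at 93.6, 77.5 and 56.04 FPKM in BAT siH19 d3. The groups did not overlap, but the siH19 libraries were spread widely, and the log2 fold change was 0.87 (SE 0.18, adjusted p = 0.023, limma). This call was lost without BAT siCtrl d3 replicate 1 (adjusted p = 0.0653), replicate 2 (0.064) or replicate 3 (0.0566), and without BAT siH19 d3 replicate 2 (0.0679), with log2 fold changes between 0.79 and 0.91. It was also lost when low genes were not filtered out (adjusted p = 0.0672).

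*Ankrd1*, a nuclear ankyrin-repeat protein best known from stressed heart and muscle, and *Yap1* itself passed the p threshold but not the fold threshold in BAT cells at d3. *Ankrd1* was at 9.70, 9.14 and 10.5 FPKM in siCtrl and at 11.9, 13.97 and 13.06 FPKM in siH19, a log2 fold change of 0.38 (SE 0.09, adjusted p = 0.03, limma) that lies just under the 1.3-fold limit. It was called with a pseudocount of 0.5 or 0.1 (log2 fold change 0.39 and 0.41), and without BAT siCtrl d3 replicate 3 (0.42) or BAT siH19 d3 replicate 1 (0.43). The siH19 and siCtrl libraries of *Yap1* given above did not overlap, with a log2 fold change of 0.27 (SE 0.05, adjusted p = 0.012, limma).

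The other 4 genes had log2 fold changes of 0.43 (SE 0.33, *Lats2*), 0.11 (SE 0.06, *Amotl2*), 0.11 (SE 0.10, *Tead1*) and 0.08 (SE 0.05, *Wwtr1*) in BAT cells at d3, with adjusted p of 0.42, 0.27, 0.54 and 0.37 (limma) and overlapping groups. *Lats2*, a kinase that phosphorylates YAP and TAZ and whose gene is itself induced by YAP, varied most between replicates, from 10.5 to 25.4 FPKM in siCtrl and from 16.6 to 29.4 FPKM in siH19. *Amotl2*, an angiomotin-like protein that holds YAP at cell junctions, was at 165.9, 169.6 and 164.3 FPKM in siCtrl and at 190.4, 186.5 and 164.4 FPKM in siH19.

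**Figure D2:**
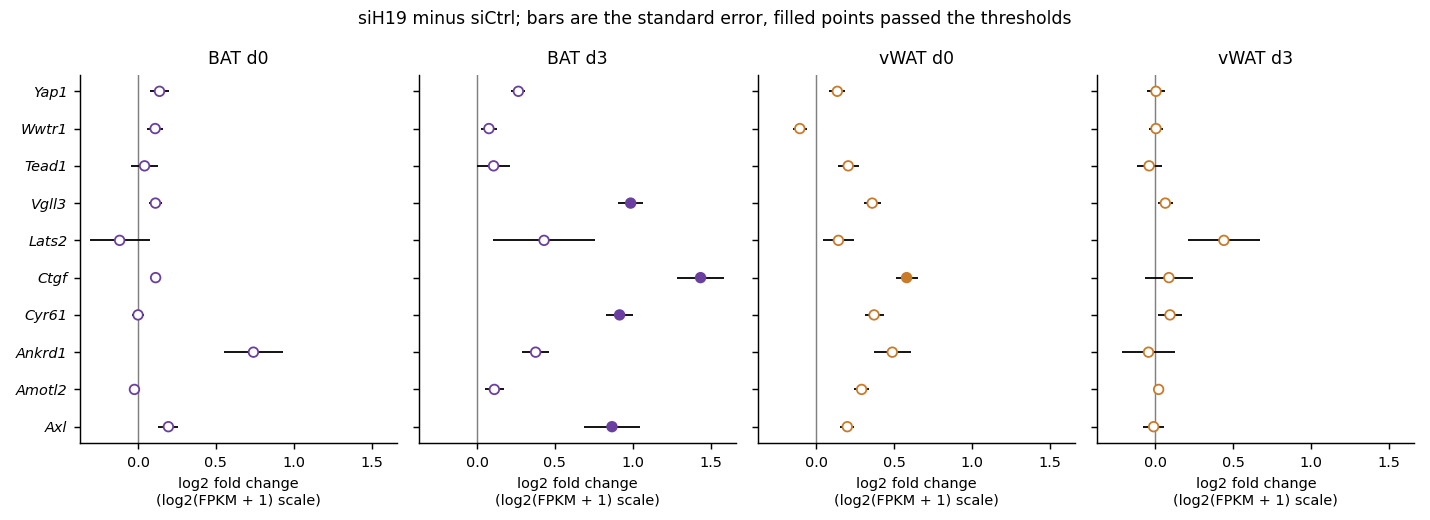
Log2 fold change of siH19 minus siCtrl (log2(FPKM + 1) scale) for the 10 genes in the 4 combinations of depot and day, with bars for the standard error and filled points for genes that passed both thresholds. The 4 filled points in BAT d3 lie between 0.87 and 1.44, 1 point is filled in vWAT d0, and none is filled in BAT d0 or vWAT d3.

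Before differentiation, the BAT cells showed none of these calls. In BAT at d0, 0 of the 10 genes passed, beside 0.617% of 12651 genes higher and 1.32% lower (2482 genes at an unadjusted p under 0.05, limma). *Ctgf* was at 2335, 2253 and 2362 FPKM in siCtrl and at 2497, 2513 and 2505 FPKM in siH19, a log2 fold change of 0.11 (SE 0.03, adjusted p = 0.083, limma) with non-overlapping groups. *Cyr61* was at 862.9 to 936 FPKM in siCtrl and 884 to 925 FPKM in siH19, which overlapped. *Ankrd1* had the largest value of the set there, 0.74 (SE 0.19, adjusted p = 0.096, limma), from 9.42, 12.6 and 6.80 FPKM in siCtrl and 15.4, 16.4 and 17.1 FPKM in siH19. In 1 fit over all 24 libraries, which share their estimate of the spread, *Ankrd1* was called (adjusted p = 0.007). In all, 6 of the 10 genes had non-overlapping groups, a count without a share over all genes to set it against, since that share was not computed.

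In vWAT cells at d0, *Ctgf* was called higher in siH19, 9 genes were not called, and 0.329% of 13063 genes were higher and 1.2% lower. *Ctgf* was at 770.7, 682.8 and 729.5 FPKM in siCtrl and at 1084, 1011 and 1174 FPKM in siH19, and the groups did not overlap (log2 fold change 0.58, SE 0.07, adjusted p = 0.016, limma). The call was lost without vWAT siCtrl d0 replicate 2 (adjusted p = 0.077) or replicate 3 (0.0671), without vWAT siH19 d0 replicate 1 (0.0556) and when low genes were not filtered out (0.0619), at log2 fold changes of 0.54 to 0.58.

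In the same vWAT d0 comparison, 9 of the 10 genes had non-overlapping groups, 8 of them with a higher siH19 group and *Wwtr1* with a lower one. The share of all genes with non-overlapping groups was not computed, so this count is not read as a result about the set. Of 13063 genes, 2303 had an unadjusted p under 0.05 (limma). *Cyr61* (0.37, SE 0.06, adjusted p = 0.04), *Vgll3* (0.36, SE 0.05, adjusted p = 0.03) and *Amotl2* (0.29, SE 0.05, adjusted p = 0.043) passed the p threshold of limma but stayed under 1.3-fold. When the libraries were rescaled by the median ratio of their genes, *Cyr61* (0.41) and *Vgll3* (0.40) were called as well. *Ankrd1* was at 5.48 to 7.53 FPKM in siCtrl and 8.88 to 10.1 FPKM in siH19 (0.49, SE 0.12, adjusted p = 0.1, limma).

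In vWAT cells at d3, 0 of the 10 genes passed, 0.00764% of 13097 genes were higher and 0.0229% were lower, and 1315 genes had an unadjusted p under 0.05 (limma). All 10 genes had overlapping groups, but the share of all genes with such groups was not computed. *Ctgf* was at 47.7, 52.5 and 36.4 FPKM in siCtrl and at 43.9, 55.6 and 45.1 FPKM in siH19, a log2 fold change of 0.09 (SE 0.15), and *Cyr61* was at 96.1, 110.2 and 98.1 FPKM in siCtrl and at 103, 119 and 103 FPKM in siH19, a log2 fold change of 0.10 (SE 0.08). *Vgll3* (0.07, SE 0.05) and *Axl* (-0.01, SE 0.07) had small log2 fold changes with small errors, and *Lats2* (0.44, SE 0.23) a larger one with a large error. *Ankrd1* was at 0.591 to 1.29 FPKM in siCtrl and 0.735 to 1.21 FPKM in siH19, so that it reached the filter of 1 FPKM in 3 libraries only.

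Whether the effect of siH19 differed between depots at d3 was tested with an interaction term in limma over 12 libraries, called at an adjusted p under 0.05 with no minimum fold. It was positive, meaning a larger effect in BAT, for 5 of the 10 genes and negative for 0, beside 7.02% and 3.52% of 13762 genes. The mean of *H19* itself was 89.77 FPKM in BAT siCtrl d3 and 8.585 FPKM in vWAT siCtrl d3. Less *H19* was thus present to silence in vWAT, and the part of this in the terms was not tested. Depot also cannot be told apart from medium and relative depth here. The differences in log2 fold change were 1.35 (SE 0.24, adjusted p = 0.0064) for *Ctgf*, 0.92 (SE 0.09, adjusted p = 0.0014) for *Vgll3* and 0.82 (SE 0.13, adjusted p = 0.0039) for *Cyr61*. These 3 terms were called in every fit that left out 1 library. Those of *Axl* (0.88, SE 0.21, adjusted p = 0.028) and *Yap1* (0.26, SE 0.07, adjusted p = 0.033) were not. The term of *Axl* lost its call, at values of 0.80 to 0.92, with no filter on low values (0.88, adjusted p = 0.0643) and without BAT siCtrl d3 replicate 1 (adjusted p = 0.0547) or replicate 2 (0.0504), BAT siH19 d3 replicate 2 (0.0578), vWAT siCtrl d3 replicate 3 (0.0687), or vWAT siH19 d3 replicate 2 (0.0597) or replicate 3 (0.0599). The term of *Yap1* lost its call, at values of 0.22 to 0.27, without any 1 of the BAT siCtrl d3 or vWAT siCtrl d3 libraries, BAT siH19 d3 replicate 1 or 2, or vWAT siH19 d3 replicate 1 or 2 (adjusted p of 0.0564 to 0.0801), and it was 0.19 (adjusted p = 0.12) with rescaled libraries.

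Whether it differed between days in BAT was tested in the same way over the 12 BAT libraries. The interaction was positive, a larger siH19 effect at d3, for *Ctgf* (1.32, SE 0.17, adjusted p = 0.0014), *Cyr61* (0.92, SE 0.10, adjusted p = 0.00089) and *Vgll3* (0.87, SE 0.09, adjusted p = 0.00062), and for 7.79% of 13575 genes, with 1.27% negative. *Axl* did not pass (0.67, SE 0.21, adjusted p = 0.079), but both *Axl* (0.87, adjusted p = 0.00591) and *Amotl2* (0.20, adjusted p = 0.043) passed without BAT siH19 d3 replicate 3. Both interaction terms share the BAT d3 libraries, so they are not independent of each other. In BAT, *H19* itself was 29.9-fold lower in siH19 at d0 and 6.55-fold lower at d3. Its interaction of day and siRNA was 1.99 (SE 0.293, adjusted p = 0.0028, limma), and the part of this in the terms of the members was not tested.

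The whole table leaned to one side in these comparisons, and how far depended on scaling. With rescaled libraries, the genes called in BAT cells at d3 split into 629 higher and 410 lower in place of 799 and 272, while the same 4 members were called. In vWAT cells at d0 the split became 61 and 128 in place of 43 and 157. The interaction of depot and siRNA became 635 and 757 in place of 966 and 485, and that of day and siRNA 524 and 334 in place of 1058 and 172.

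The step from d0 to d3 was accompanied by much larger differences in this set than siH19. In BAT siCtrl cells, 7 of the 10 genes were lower at d3, 1 was higher and 2 did not pass, whereas over all 13001 genes 35.3% were lower and 29.9% were higher. *Ctgf* fell by 5.01 on the log2 scale (SE 0.14, adjusted p = 1.9e-07, limma), *Cyr61* by 3.46 (SE 0.09), *Axl* by 2.72 (SE 0.08), *Vgll3* by 2.65 (SE 0.08), *Lats2* by 1.93 (SE 0.29), *Tead1* by 0.95 (SE 0.10) and *Amotl2* by 0.82 (SE 0.04). The fall of *Ctgf* was 32.3-fold between group means, from 2317 ± 56.4 to 71.8 ± 14.6 FPKM (SD, n = 3). *Wwtr1* rose by 0.57 (SE 0.05, adjusted p = 7.7e-05, limma). *Yap1* had a log2 fold change of -0.36 (SE 0.05, adjusted p = 0.00042, limma), just under the 1.3-fold limit, and was called without BAT siCtrl d0 replicate 3 (-0.38). *Ankrd1* had 0.06 (SE 0.19).

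In BAT siH19 cells the same 8 genes were called in the same directions, with 29.8% of 12962 genes lower and 30.8% higher. *Ctgf* fell by 3.69 (SE 0.07), *Cyr61* by 2.55 (SE 0.04), *Axl* by 2.05 (SE 0.18) and *Vgll3* by 1.77 (SE 0.04), each less than in siCtrl, as the interaction of day and siRNA above gives for *Ctgf*, *Cyr61* and *Vgll3*. *Wwtr1* rose by 0.54 (SE 0.05). In absolute terms *Ctgf* stood at 193.8 ± 19.2 FPKM in BAT siH19 d3 against 2505 ± 7.89 FPKM (SD, n = 3) in BAT siH19 d0, so it was still 12.9-fold lower at d3.

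In vWAT siCtrl cells, 5 of the 10 genes were lower at d3, 0 were higher and 5 did not pass, beside 23.9% lower and 26.3% higher of 13368 genes. *Ctgf* fell by 3.98 (SE 0.13), *Cyr61* by 2.49 (SE 0.07), *Ankrd1* by 1.96 (SE 0.17), *Lats2* by 0.89 (SE 0.22) and *Axl* by 0.75 (SE 0.06). *Ankrd1* was at 7.53, 5.48 and 6.94 FPKM at d0 and at 1.06, 1.29 and 0.591 FPKM at d3, and the groups did not overlap. In vWAT siH19 cells the same 5 genes and *Tead1* were lower, beside 24.5% lower and 28.2% higher of 13357 genes. There *Ctgf* fell by 4.48 (SE 0.10), *Cyr61* by 2.76 (SE 0.07), *Ankrd1* by 2.49 (SE 0.12), *Axl* by 0.96 (SE 0.06), *Lats2* by 0.59 (SE 0.12) and *Tead1* by 0.54 (SE 0.07).

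**Figure D3:**
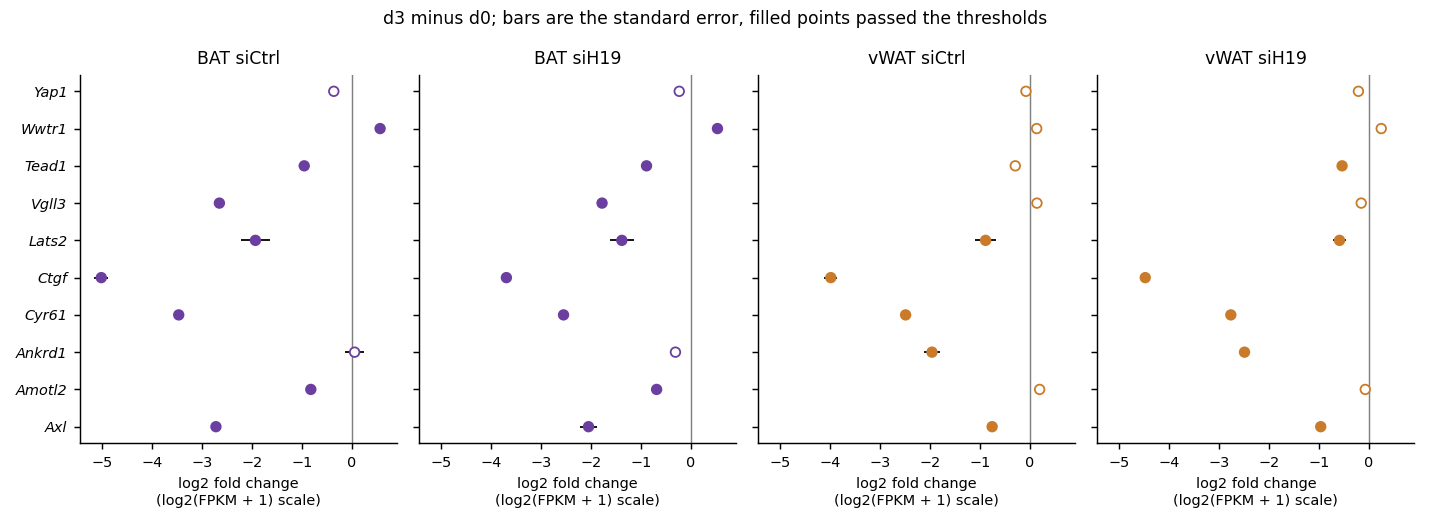
Log2 fold change of d3 minus d0 (log2(FPKM + 1) scale) for the 10 genes in the 4 combinations of depot and siRNA, with bars for the standard error and filled points for genes that passed both thresholds. Ctgf and Cyr61 lie at -2.49 or lower in all 4 panels, whereas Vgll3 lies at -2.65 and -1.77 in BAT and at 0.14 and -0.15 in vWAT.

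*Vgll3*, *Axl* and *Ankrd1* separated the depots in their course over time. *Vgll3* was at 77.6, 84.02 and 82.9 FPKM in BAT siCtrl d0 and 12.6, 10.9 and 13.1 FPKM at d3, whereas in vWAT siCtrl it was at 41.8, 38.4 and 37.5 FPKM at d0 and 42.4, 42.5 and 45.3 FPKM at d3. *Axl* was at 261.4, 287.9 and 261.5 FPKM in BAT siCtrl d0 and 36.2, 42.7 and 42.1 FPKM at d3, against 305.4, 288.4 and 299.7 FPKM and then 169, 169 and 191 FPKM in vWAT siCtrl. *Ankrd1* did the opposite, staying between 6.80 and 12.6 FPKM in BAT siCtrl on both days.

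The interaction of depot and day in siCtrl cells was called for 9 of the 10 genes, 7 negative (a larger fall or smaller rise in BAT) and 2 positive, beside 28.1% negative and 24.9% positive of 14111 genes. It was -2.79 (SE 0.10, adjusted p = 5.5e-09, limma) for *Vgll3*, -1.96 (SE 0.10) for *Axl*, -1.03 (SE 0.21) for *Ctgf*, -1.02 (SE 0.05) for *Amotl2* and -0.98 (SE 0.12) for *Cyr61*. Smaller terms were found for *Tead1* (-0.66, SE 0.14) and *Yap1* (-0.28, SE 0.06). *Ankrd1* (2.02, SE 0.28) and *Wwtr1* (0.43, SE 0.06) were positive. *Lats2* (-1.04, SE 0.40, adjusted p = 0.05) did not pass, and it passed without BAT siCtrl d3 replicate 3 (-1.33, adjusted p = 0.00964), vWAT siCtrl d3 replicate 1 (-1.16, 0.0486) or vWAT siCtrl d3 replicate 2 (-1.18, 0.044).

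Between depots in siCtrl cells at d0, 5 of the 10 genes were higher in BAT and 0 were lower, beside 10.2% higher and 21% lower of 13139 genes. They were *Ctgf* (log2 fold change 1.67, SE 0.05), *Vgll3* (1.04, SE 0.06), *Amotl2* (1.04, SE 0.05), *Lats2* (0.68, SE 0.11) and *Cyr61* (0.65, SE 0.05). *Ctgf* was 3.18-fold higher in BAT, at 2317 ± 56.4 against 727.7 ± 44.0 FPKM (SD, n = 3). *Ankrd1* had 0.44 (SE 0.21, adjusted p = 0.13, limma) and was called without BAT siCtrl d0 replicate 3 (0.65, adjusted p = 0.0287).

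At d3, *Ankrd1* (2.46, SE 0.14) and *Ctgf* (0.64, SE 0.18) were higher in BAT siCtrl than in vWAT siCtrl, and *Axl* (-2.10, SE 0.08), *Vgll3* (-1.75, SE 0.08) and *Tead1* (-0.39, SE 0.10) were lower, that is 2 higher and 3 lower of 10 beside 16.5% and 32.1% of 13120 genes. *Vgll3* was thus called higher in BAT at d0 and lower in BAT at d3, the one member called in opposite directions on the 2 days. *Ctgf* lost its call without BAT siCtrl d3 replicate 1 (adjusted p = 0.0504). *Tead1* fell below 1.3-fold without BAT siCtrl d3 replicate 2 (-0.33) or replicate 3 (-0.37) or vWAT siCtrl d3 replicate 1 (-0.31), and *Cyr61* (-0.32, SE 0.10) was called without BAT siCtrl d3 replicate 3 (-0.41).

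Depot comparisons shifted with scaling. The median log2 fold change of all genes was -0.13 at d0 and -0.16 at d3, and rescaling moved it to -0.02 and -0.04. With rescaled libraries, 1825 genes were higher and 1974 lower in BAT at d0 in place of 1343 and 2753, and 2792 and 3377 at d3 in place of 2162 and 4216. The members kept their directions. Relative to the rescaled libraries, *Ctgf* was 1.80 and *Tead1* 0.39 higher in BAT at d0, the latter now called, and at d3 *Wwtr1* was called (0.43) whereas *Tead1* was not (-0.26, adjusted p = 0.0606, limma).

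Other genes of the pathway were taken from 3 lists of textbook components, 43 genes in all, also chosen with earlier results of these data known. They are described by counts without a test of the list, and these counts are not an unbiased comparison with all genes. Of 16 further YAP and TAZ target genes, 15 were tested in BAT cells at d3, and 7 were higher in siH19, 0 were lower and 8 did not pass. Over all genes tested there, 6.39% were higher and 2.18% were lower. The median log2 fold change was 0.35 over these target genes and 0.05 over all genes. The largest values were those of *Tgfb2*, a ligand of the TGF-beta family (0.88, SE 0.22), *Crim1*, a transmembrane protein that binds BMP ligands (0.71, SE 0.12), and *Nuak2*, a kinase of the AMPK family (0.70, SE 0.12). *Nuak2* was below 1 FPKM in all 3 siCtrl libraries and passed the filter only through the siH19 libraries, so its place among the 7 is not read as a result. The other called genes were *Rbms3* (0.67), *Myof* (0.62), *F3* (0.48) and *Ccdc80* (0.46). The count fell to 4 without BAT siCtrl d3 replicate 2 or BAT siH19 d3 replicate 3 (14 tested in the latter fit) and to 5 when low genes were not filtered out.

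Of these target genes, 0 of 16 tested were called in BAT at d0 and 0 of 15 tested in vWAT at d3, and the fit over all 24 libraries called 1 lower in BAT at d0. In vWAT at d0, *Igfbp3* (0.62, SE 0.06) and *F3*, the tissue factor that starts coagulation (0.52, SE 0.06), were higher in siH19, and *Nt5e*, the ectoenzyme CD73 (-0.74, SE 0.06), was lower. Of the 2 higher calls 1 was lost with no filter on low values and without any 1 of the vWAT siCtrl d0 libraries or vWAT siH19 d0 replicate 2. The interaction of depot and siRNA at d3 was positive for 5 of 15 and negative for 0, beside 7.02% and 3.52% of all genes, with *Rbms3* (0.84, SE 0.20), *Nuak2* (0.68, SE 0.15) and *Crim1* (0.67, SE 0.14) the largest. The interaction of day and siRNA in BAT was positive for 6 of 16 and negative for 1, *Dock5* (-0.48, SE 0.12), beside 7.79% and 1.27% of all genes. The counts fell to 2 positive and 1 negative with rescaled libraries. They ranged from 2 to 6 positive and from 0 to 2 negative when 1 library was left out, with 2 positive without BAT siCtrl d0 replicate 3 or BAT siCtrl d3 replicate 2 and 3 without BAT siCtrl d0 replicate 2, BAT siH19 d0 replicate 3 or BAT siH19 d3 replicate 2. The negative count was 2 without BAT siH19 d3 replicate 1, 1 without BAT siCtrl d0 replicate 2 or BAT siH19 d3 replicate 2, and 0 without any other library or with no filter on low values.

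From d0 to d3, 13 of the 16 target genes were lower and 1 was higher in BAT siCtrl, and 11 of 15 were lower and 0 higher in vWAT siCtrl, beside 35.3% lower and 29.9% higher of all genes in BAT and 23.9% and 26.3% in vWAT. The medians were -1.26 and -0.71, beside -0.10 and 0.01 over all genes. *Myof*, a ferlin membrane protein, went from 60.04 to 6.04 FPKM in BAT (log2 fold change -3.12, SE 0.06) and from 42.1 to 15.2 FPKM in vWAT (-1.41, SE 0.05). *F3* went from 490.4 to 71.2 FPKM in BAT (-2.77, SE 0.05) and from 442 to 145 FPKM in vWAT (-1.60, SE 0.05). *Ptpn14*, a phosphatase that binds YAP, was the exception in BAT and was higher at d3 (0.48, SE 0.07), whereas it was lower at d3 in vWAT (-0.80, SE 0.10).

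**Figure D4:**
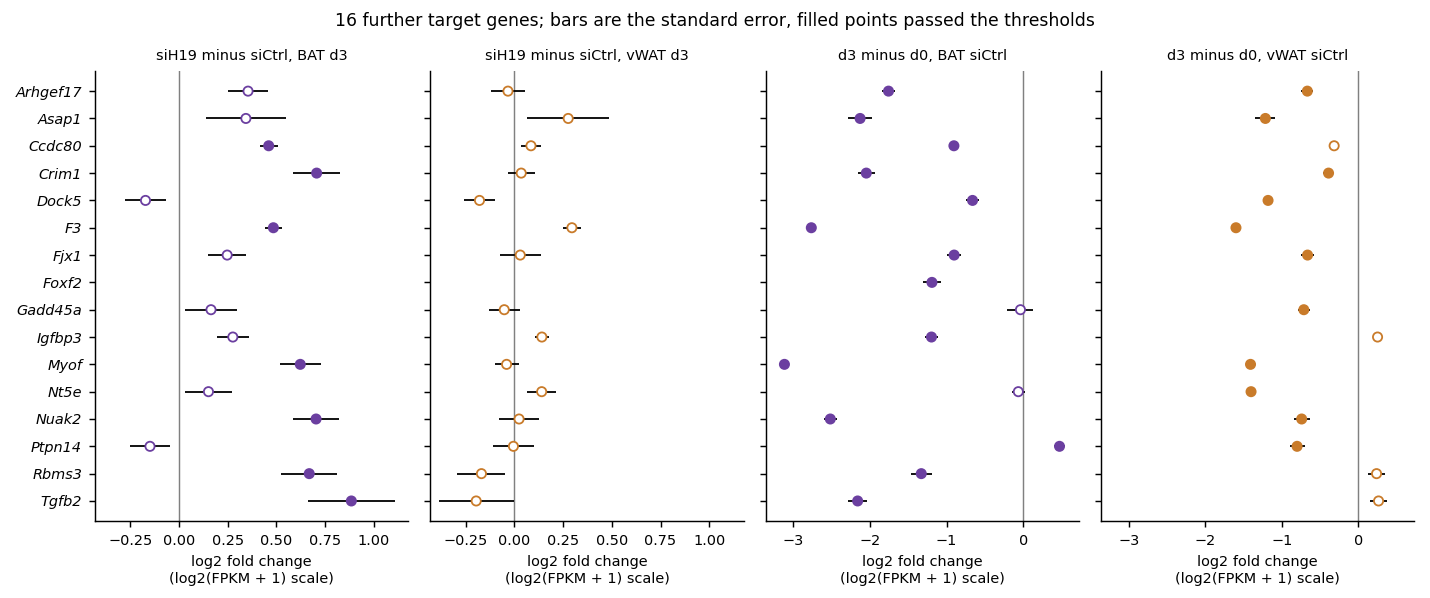
Log2 fold changes (log2(FPKM + 1) scale) of 16 further YAP and TAZ target genes for siH19 minus siCtrl at d3 and for d3 minus d0 in siCtrl cells, in BAT (purple) and vWAT (orange), with bars for the standard error and filled points for genes that passed both thresholds. In the BAT d3 panel 7 points are filled and all lie above 0, in the vWAT d3 panel none is filled, and Foxf2 is missing where it did not pass the filter on low values.

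Of 21 Hippo kinases and regulators, 19 were tested in BAT cells at d3, where 6.39% of all genes were higher in siH19 and 2.18% were lower. Near those shares, 1 of the 19 was higher and 0 were lower. That gene was *Frmd6* (0.55, SE 0.09, adjusted p = 0.01, limma), a FERM-domain protein upstream of the kinases, at 5.02 to 6.15 FPKM in siCtrl and 8.33 to 9.03 FPKM in siH19. No gene of this list was called in the other 3 siH19 comparisons. From d0 to d3, 11 of 19 were lower and 2 higher in BAT siCtrl and 12 of 19 lower and 1 higher in vWAT siCtrl (2 higher without vWAT siCtrl d0 replicate 2), beside the same shares of all genes as for the targets (35.3% and 29.9%, 23.9% and 26.3%). *Frmd6* (-2.80, SE 0.08), *Ajuba* (-2.26, SE 0.07) and *Wtip* (-1.42, SE 0.11), the latter pair LIM proteins that bind LATS kinases, were lower in BAT, and the scaffold *Sav1* (1.38, SE 0.04) and the tumour suppressor *Nf2* (0.99, SE 0.06) were higher.

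Of 6 further TEAD and vestigial-like genes, 4 were tested in BAT cells at d3 and 0 were called for siH19 in either direction. From d0 to d3 in BAT siCtrl, *Tead3* (-1.69, SE 0.16), *Tead2* (-1.29, SE 0.06) and *Vgll4*, a cofactor that competes with YAP for TEAD binding (-0.69), were lower. *Tead3* was at 25.9 ± 2.51 FPKM and 23.6 ± 2.51 FPKM (SD, n = 3) in vWAT siCtrl at d0 and d3 and did not pass there. *Vgll1* was listed at 0 in all 24 libraries.

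Markers of cell types moved along with these genes in BAT cells at d3, where 6.39% of all genes were higher in siH19 and 2.18% were lower. Of 6 smooth muscle and pericyte markers, 4 were tested and all 4 were higher in siH19 (*Acta2* 1.11, *Actg2* 1.17, *Tagln* 1.17, *Cnn1* 1.21 on the log2 scale), with a summed level of 439 to 608 FPKM in siCtrl and 1047 to 1262 FPKM in siH19. Several of these contractile genes also respond to serum response factor and to cell tension. Of 5 adipocyte precursor markers, 4 were tested and 3 were higher (*Ly6a* 0.85, *Dlk1* 0.66, *Pdgfra* 0.42), summing to 277 to 316 FPKM in siCtrl and 495 to 527 FPKM in siH19. This count fell to 1 with rescaled libraries, with no filter on low values and without BAT siCtrl d3 replicate 2 or 3 or BAT siH19 d3 replicate 1 or 2. Of 5 brown adipocyte markers 4 were lower (*Cidea* -1.95, *Ucp1* -1.75, *Ppargc1a* -0.81, *Elovl3* -0.68), summing to 469 to 541 FPKM in siCtrl and 293 to 322 FPKM in siH19. None of 7 general adipocyte markers was called, with sums of 37576 to 39282 FPKM in siCtrl and 34248 to 36568 FPKM in siH19. In such mixed cultures fewer cells of a type and less RNA per cell cannot be told apart, and the part of these markers in the values of the 10 genes was not tested.

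Markers of the other cell types were low in BAT cells at d3. Endothelial markers summed to at most 4.06 FPKM, mesothelial markers to at most 4.18 FPKM (with *Upk3b* at 0 in all 3 siH19 libraries), and macrophage markers to 10.3 to 10.5 FPKM in siCtrl and 6.69 to 7.68 FPKM in siH19. Of 3 macrophage markers tested, 1 was lower (2 with rescaled libraries or without BAT siH19 d3 replicate 2). Without any 1 of the BAT siCtrl d3 libraries 0 were lower, but only 2 were then tested, so a marker had passed the filter only through the siCtrl group. The count of lower macrophage markers is therefore not read as a result. Skeletal muscle markers summed to 27.3 to 33.5 FPKM in siCtrl and 37.4 to 46.6 FPKM in siH19, and 1 of 3 tested, *Des*, was higher, a call that was lost with rescaled libraries, with no filter and without BAT siCtrl d3 replicate 2 or 3 or any 1 of the BAT siH19 d3 libraries. In vWAT the mesothelial sum was 114 to 132 FPKM in siCtrl d0 and 39.1 to 45.4 FPKM in siCtrl d3, which cannot be told apart from depot in the comparisons of BAT with vWAT. At d0, beside 1.32% of all genes lower in siH19 in BAT and 1.2% in vWAT, 5 of 7 adipocyte markers were lower in siH19 in both depots. Their sums were 3135 to 3408 against 1583 to 2115 FPKM in BAT and 4087 to 4095 against 2412 to 2721 FPKM in vWAT. In BAT the count fell to 0 without BAT siCtrl d0 replicate 2 or 3 or BAT siH19 d0 replicate 3, to 1 without BAT siCtrl d0 replicate 1 and to 2 with no filter, and in vWAT to 3 without vWAT siCtrl d0 replicate 1 or 2 or vWAT siH19 d0 replicate 2. These are the only marker calls in BAT at d0 beside *Krt19* (0.68), whose call was lost without any 1 of the 6 libraries, and in vWAT at d0 beside *Acta2* (0.59), which was higher alongside *Ctgf* and lost its call with no filter and without vWAT siCtrl d0 replicate 2 or 3 or vWAT siH19 d0 replicate 1 or 3. At vWAT d3, where 0.00764% of all genes were higher and 0.0229% were lower, no member was called and no marker list held a called gene. With so few calls, this says little about members and markers together. From d0 to d3, 29.9% of all genes were higher and 35.3% lower in BAT siCtrl, and 26.3% and 23.9% in vWAT siCtrl. All 7 adipocyte markers were higher in both depots beside the falls of *Ctgf* and *Cyr61*. In BAT siCtrl all 6 smooth muscle and pericyte markers (3311 to 3627 FPKM at d0) and all 5 precursor markers (712 to 791 against 277 to 316 FPKM) were lower. In vWAT siCtrl, where *Ctgf* and *Cyr61* fell as well, 3 of 5 precursor markers were lower and 1 was higher, and their sum went from 542 to 601 FPKM at d0 to 661 to 741 FPKM at d3. Of 5 smooth muscle and pericyte markers tested there, 2 were lower and 2 were higher, with sums of 1457 to 1680 FPKM at d0 and 973 to 1194 FPKM at d3. The higher count was 0 without vWAT siCtrl d3 replicate 1 or 2, and 1 without vWAT siCtrl d3 replicate 3, vWAT siCtrl d0 replicate 2 or 3 or with no filter, and the lower count was 1 without vWAT siCtrl d0 replicate 1 or 3 or vWAT siCtrl d3 replicate 3 or with no filter. Without any 1 of the vWAT siCtrl d3 libraries 4 were tested in place of 5, so a marker had passed the filter only through that group. The part of these markers in the falls was not tested.

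**Figure D5:**
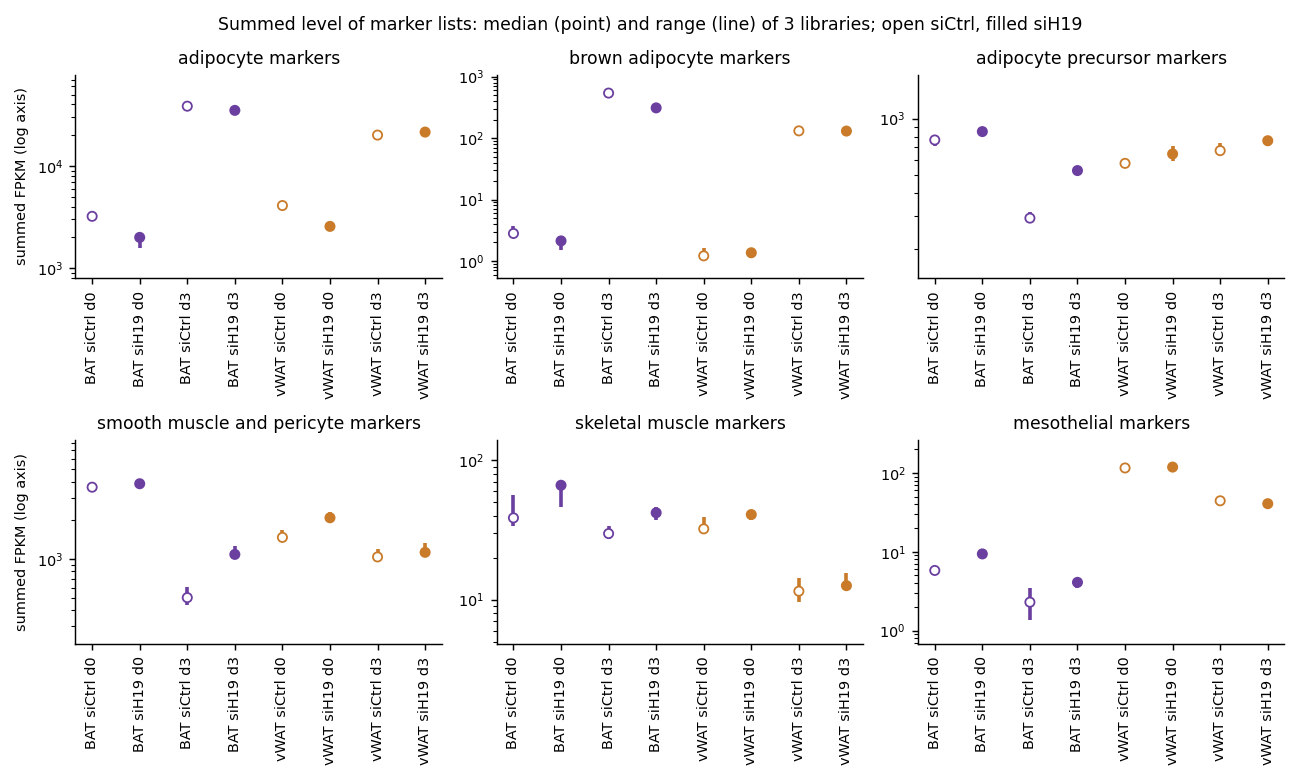
Summed FPKM (log axis) of 6 cell type marker lists in the 8 groups, with the median as a point and the range of 3 libraries as a line, BAT in purple, vWAT in orange, siCtrl open and siH19 filled. In BAT d3 the smooth muscle and pericyte sum is 439 to 608 FPKM in siCtrl and 1047 to 1262 FPKM in siH19, and the brown adipocyte sum is lower in siH19.

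The genes whose 8 group means ran most like those of the members were found by Pearson r on log2(FPKM + 1) among 6314 genes with a range of at least 1 on that scale. For *Ctgf* they were *Itpripl2* (r = 0.9984), *Ext1* (0.9984), which encodes an enzyme of heparan sulfate synthesis, and *Ntn1* (0.9976), a secreted guidance protein. For *Cyr61* they were *Msn* (0.9975), a linker of membrane and actin cytoskeleton, *Mbnl2* (0.9971), a splicing regulator, and *Prr7* (0.9969). For *Ankrd1* they were *Prkg2* (0.9793), *Map1b* (0.9793) and *Atp13a3* (0.9787), and for *Yap1* *S100a4* (0.9538), *Ccdc109b* (0.9476) and *Anxa3* (0.9457). These values rest on 8 groups that share depot, day and library series, and no p is given for them.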

How the data were processed

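Expression was measured by RNA-seq in 24 libraries, grouped by depot, siRNA and day from the labels. The labels name the control siKO and the white depot WAT, which were read as siCtrl and vWAT from the paper. The authors mapped the reads to GRCm38 with TopHat2 (2.0.10 per the submitters' processing notes, which name build GRCm38.p5), and deposited FPKM per gene from Cufflinks (2.2.1 per the same notes) in 1 table that names no unit. FPKM is taken from the paper's description of these data. Reads were described as single-end in the paper and as paired-end in the labels. FPKM are relative to the library total, so a rise of abundant genes lowers all others. No column of per-sample values was left out (0 columns).

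Values were transformed to log2(FPKM + 1) and tested with limma 3.58.1 in R 4.3.3 (intensity trend), keeping genes that reached 1 FPKM in 3 or more libraries of the fit. Each of 10 comparisons used its own 6 libraries, and each of 3 interaction terms used 12. Benjamini-Hochberg adjustment covered all genes tested, and calls needed an adjusted p under 0.05 and 1.3-fold (interactions no minimum fold). The script was tested on simulated data. The alternatives were other pseudocounts, no filter on low values, libraries rescaled by the median ratio, 1 fit over all libraries, a replicate block, no minimum fold and leaving out each library. All 10 members were named, with *H19*, the called genes of each pathway list with the largest changes (up to 3 each way), and the 3 genes most like *Ctgf*, *Cyr61*, *Ankrd1* and *Yap1*. Marker genes, and the other called genes of lists named beside counts, fall outside this rule for named genes or were named after their values were seen. The members and lists were chosen with earlier results of these data known. Promoter windows were read from RefSeq (GRCm38.p6), and gene positions are those of the table. Tables and plots used Python 3.11.15, pandas 2.3.3, numpy 2.4.6 and matplotlib 3.10.9.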

Additional observations from a re-analysis of the deposited data

Results flagged for a closer look

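The effect of siH19 at d3 differed between BAT and vWAT, by the interaction term of limma (BAT minus vWAT, log2(FPKM + 1) scale), for *Ctgf* (1.347), *Vgll3* (0.921), *Axl* (0.876), *Cyr61* (0.82) and *Yap1* (0.26), and all 5 effects were larger in BAT. The calls of *Axl* and *Yap1* were lost without any 1 of 6 and of 10 of the 12 libraries, with terms in those fits of 0.80 to 0.92 and 0.22 to 0.27. The mean of *H19* itself was 89.77 FPKM in BAT siCtrl d3 and 8.585 FPKM in vWAT siCtrl d3, so less was present to silence in vWAT. Depot cannot be told apart from medium, library series and relative depth.

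The effect of siH19 in BAT differed between days (d3 minus d0) for *Ctgf* (1.322), *Cyr61* (0.915) and *Vgll3* (0.873), again by the interaction term. The effect on *H19* itself also differed between days (1.99, SE 0.293, adjusted p = 0.0028, limma), with a smaller fall at d3.

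The change from d0 to d3 in siCtrl cells differed between depots (BAT minus vWAT) for 9 genes. The term was -2.791 for *Vgll3*, -1.963 for *Axl*, -1.028 for *Ctgf*, -1.015 for *Amotl2*, -0.976 for *Cyr61*, -0.659 for *Tead1* and -0.281 for *Yap1*, and it was 2.017 for *Ankrd1* and 0.431 for *Wwtr1*. Depot cannot be told apart from the differentiation medium, the library series and the relative depth of the libraries.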

How the results depend on the processing

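The number of members called was within 1.5 times the reported number under most settings. Exceptions were siH19 in BAT at d0 (0 reported, 1 in the fit over all 24 libraries), siH19 in vWAT at d0 (1 reported, 0 with no filter on low values, 3 with rescaled libraries, 0 with the replicate block and 4 with no minimum fold), d3 against d0 in vWAT siCtrl (5 reported, 8 with no minimum fold), BAT against vWAT at d3 (5 reported, 8 with no minimum fold) and the interaction of depot and siRNA (5 reported, 3 with the replicate block). Leaving out 1 library gave 3 to 5 for siH19 in BAT at d3, 0 to 0 in BAT at d0, 0 to 1 in vWAT at d0 and 0 to 0 in vWAT at d3; for d3 against d0, 8 to 9 (BAT siCtrl), 8 to 8 (BAT siH19), 5 to 5 (vWAT siCtrl) and 6 to 6 (vWAT siH19); for depots, 5 to 6 at d0 and 4 to 5 at d3; and for the interactions, 3 to 5 (depot and siRNA), 9 to 10 (depot and day) and 3 to 5 (day and siRNA).

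No member that was called changed sign. Among uncalled values near 0, rescaling turned *Cyr61* (0.025) and *Amotl2* (0.002) for siH19 in BAT at d0 and *Tead1* (-0.039) for the interaction of day and siRNA. Leaving out 1 library turned values within these ranges: for siH19 in BAT at d0, *Tead1* -0.045 to 0.092, *Cyr61* -0.031 to 0.028, *Amotl2* -0.041 to 0.003 and *Lats2* -0.24 to 0.094; for siH19 in vWAT at d3, *Yap1* -0.046 to 0.043, *Wwtr1* -0.008 to 0.025, *Tead1* -0.095 to 0.045, *Ctgf* -0.062 to 0.197, *Ankrd1* -0.192 to 0.022 and *Axl* -0.065 to 0.047; *Ankrd1* from d0 to d3 in BAT siCtrl, -0.143 to 0.255; *Lats2* in the interaction of depot and siRNA, -0.32 to 0.281; and *Wwtr1* in that of day and siRNA, -0.063 to 0.008. The causes were not tested.

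Same-numbered libraries did not deviate together (correlations of -0.143 to 0.088 over 30 pairs), so the numbers were not taken as pairs. With the replicate block, the calls of *Axl* in BAT at d3 (adjusted p = 0.0541), *Ctgf* in vWAT at d0 (0.0646), *Ctgf* between depots at d3 (0.0529) and *Yap1* (0.0591) and *Axl* (0.0529) in the interaction of depot and siRNA were lost, and *Lats2* in that of depot and day (0.0289) was gained. Over all genes, the block gave 2 calls in place of 245 for siH19 in BAT at d0, 2 in place of 200 in vWAT at d0 and 0 in place of 4 in vWAT at d3. The block also gave 0 in place of 3 calls among the further target genes and 0 in place of 5 among the adipocyte markers in vWAT at d0, and 0 in place of 5 among the adipocyte markers in BAT at d0. Other settings moved these counts by over 1.5 times as well: with no filter, 35 in BAT at d0 and 65 in vWAT at d0; in the fit over all libraries, 526, 378 and 15 (vWAT at d3); and with no minimum fold, 395 in BAT at d0 and 2023 in place of 1071 in BAT at d3 and 6386 in place of 4096 between depots at d0. Leaving out 1 library gave 4 to 74 in BAT at d0, 631 to 916 in BAT at d3, 37 to 122 in vWAT at d0, 1 to 5 in vWAT at d3, 889 to 1432 in the interaction of depot and siRNA and 801 to 1091 in that of day and siRNA. *Lats2* lost its call in vWAT siH19 cells from d0 to d3 in the fit over all libraries (0.0636). The lack of counts leaves the precision of low genes such as *Ankrd1* in vWAT at d3 unknown.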
